A study of Homo sapiens with 3 samples.

Results

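The heat shock proteins and DNAJ co-chaperones of A375 cells, an established line of human melanoma, were followed in 3 poly(A) RNA sequencing libraries. Members were taken by gene symbol alone, as protein-coding genes whose names start with HSP90, HSPA, HSPB, HSPD1, HSPE1 or HSPH1, or with DNAJA, DNAJB or DNAJC and a number. The rule found 74 of the 19950 protein-coding genes in the count table, which lists 58037 genes in all. They comprise 29 heat shock proteins and 45 DNAJ genes, grouped here by the cell compartment in which their proteins work and by family.

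After washing, A375 cells had been kept for 24 h in serum-free DMEM (control) or in a secretome, which is serum-free DMEM in which young (YA) or old (OA) adipocytes had been cultured. The 24 h come from the design of the series and the study's methods, whereas the treatment protocol of the samples gives a range that ends later. The adipocytes were differentiated in culture from human subcutaneous preadipocytes, and which donors supplied the secretomes of these libraries was not given in the sources used here. Each group had 1 library of this 1 cell line, so no difference below has a replicate check and none was tested, and a difference between conditions and a difference between these libraries cannot be told apart.

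Heat shock proteins are chaperones that help other proteins to fold, keep them from clumping and hand damaged ones on for disposal. Hsp70 proteins bind exposed stretches of a client in a cycle driven by ATP. DNAJ proteins, also called J-proteins or Hsp40s, deliver clients and start ATP hydrolysis, and Hsp110 proteins free the bound nucleotide so that the client is released. Hsp90 takes over clients such as kinases and steroid receptors at a late stage of folding, including BRAF with the activating mutation common in melanoma. Under heat or other proteotoxic stress, the factor HSF1 binds heat shock elements in promoters and raises the cytosolic chaperones, while chaperones of the endoplasmic reticulum answer to the separate unfolded protein response.

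Totals were 21448195 counts for control, 21306558 for YA and 18089008 for OA. Values were compared as normalised counts, which are deposited counts divided by a size factor for each library (1.06 for control, 1.06 for YA and 0.891 for OA). A difference is given as log2((a + 1)/(b + 1)) of normalised counts or as the fold it corresponds to. A gene was called higher or lower from 1.2-fold, in either direction. The study's methods name 1.2, with no unit, for upregulated genes taken into pathway analysis, and it was read here as a linear fold. A gene was included when its mean normalised count over the 3 libraries was at least 20, as for 14413 genes. Intervals are 95% Clopper-Pearson intervals of the reads of both libraries. They treat reads as independent and cover counting error only, not variation between replicates. Amplified reads are not independent molecules, so the intervals may be too narrow even for counting error.

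Of 8 melanoma or neural crest markers, 7 had counts in control and 6 in YA and in OA, with summed levels of 98.4, 66.4 and 81.5 in CPM (a gene's count scaled to the library total). S100B had 843, 591 and 550 counts and MITF had 1221, 764 and 881 in control, YA and OA, while SOX10, a defining marker, was listed at 0 in every library. The 8 adipocyte markers summed to 30.9, 56.9 and 21.6 CPM, most of it PLIN4 and LPL, with ADIPOQ at 1, 0 and 0 counts and LEP and CIDEA at 0. That sum mixes genes lower and higher in OA than in control. LPL had 353, 583 and 30 counts and FABP4 16, 15 and 2. PLIN4 had 284, 579 and 321 counts and CIDEC 6, 31 and 36. The 8 fibroblast markers summed to 35, 44.4 and 30.7 CPM, a sum that joins opposite differences. DCN had 13, 138 and 24 counts and PDGFRA 76, 20 and 51 in control, YA and OA. Any part of these markers in the chaperone values was not tested.

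Of the 74 members, 60 were included and 14 were not. HSPA6, with 20 counts in YA, was included only through its higher control and OA libraries, and the other 59 were above the minimum of 20 in every library. Among the 14 left out, HSPB2, HSPB2-C11orf52, DNAJC5B, DNAJC5G and DNAJC25-GNG10 had no count in any library. Read as counts in control, YA and OA, HSPB6, the small heat shock protein Hsp20, had 6, 16 and 12, DNAJA4 had 11, 12 and 5, and HSPA12B had 14, 13 and 7. HSPB3, HSPB7, HSPB9, DNAJB7, DNAJB8 and DNAJB13 had at most 5 counts in a library. The muscle and testis members of the small heat shock protein family thus had at most 16 counts in any library.

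The members as a whole took 1.307% (95% Wilson interval 1.302 to 1.312), 1.189% (1.184 to 1.193) and 1.52% (1.515 to 1.526) of all counts in the control, YA and OA libraries. Most of this difference lay in the cytosol and nucleus, whose members took 0.8629%, 0.7491% and 1.052% in the same order. Members of the endoplasmic reticulum took 0.2539%, 0.2499% and 0.2598%, and those of the mitochondria 0.1495%, 0.1501% and 0.1706%. Chaperone messages thus made up the smallest share of the library in YA-A375 and the largest in OA-A375. Whether more RNA per cell or more cells with such RNA lies behind a share cannot be told apart in bulk libraries.

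**Figure D1:**
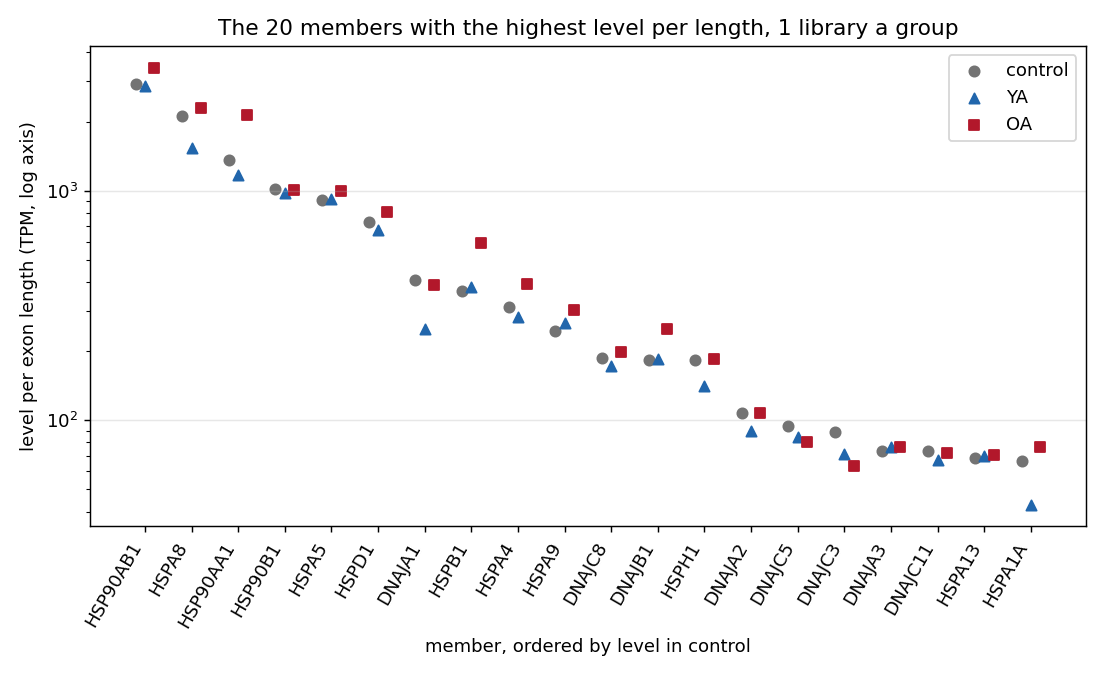
Level per exon length (TPM, counts per kilobase of exon, scaled to the same sum in each library, log axis) of the 20 members with the highest level in control, with 1 point for each of the control, YA and OA libraries. HSP90AB1 leads in each library with 2917, 2870 and 3431 TPM, and DNAJA1 and HSPA1A show their lowest point in YA.

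Compared per length of exon, the 6 most abundant members kept the same order in each library. HSP90AB1, the constitutive cytosolic Hsp90 beta, stood first with 2917, 2870 and 3431 TPM in control, YA and OA. HSPA8, the constitutive Hsp70 known as Hsc70, followed with 2116, 1541 and 2284, and HSP90AA1, the stress-inducible Hsp90 alpha, with 1365, 1174 and 2140. Then came HSP90B1 (GRP94 of the endoplasmic reticulum), HSPA5 (BiP, its Hsp70) and HSPD1 (mitochondrial Hsp60) with 728 TPM in control. The stress-inducible pair HSPA1A and HSPA1B was counted at a low level, at 0.0572 (interval 0.0544 to 0.0601), 0.0542 (0.051 to 0.0575) and 0.068 (0.0648 to 0.0713) of the HSPA8 level per length in control, YA and OA. These genes share much of their sequence and reads with several matches may have been dropped, so their true level could be higher.

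A first question was what the young secretome did to the chaperones. In YA against control, 1 of the 60 members was at least 1.2-fold higher, beside 17.4% of all genes tested, and 13 were at least 1.2-fold lower, beside 16.4% of all genes. The share lower, 21.7%, was thus somewhat above the share among all genes and the share higher was far below it. The median log2 difference of the members was -0.08, beside -0.02 for all genes. No member was 2-fold higher or lower, where 2.15% of all genes were 2-fold higher and 0.971% were 2-fold lower.

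The second comparison asked the same of the old secretome. In OA against control, 14 members were at least 1.2-fold higher, beside 21.1% of all genes, and 4 were at least 1.2-fold lower, beside 21.5% of all genes. The 14 are 23.3% of the members and so near the share among all genes, whereas the 4 lower ones, 6.67%, are well under it. The median was 0.04, beside 0.01 for all genes. No member reached 2-fold, which 2.86% of all genes did upward and 3.71% downward. Both comparisons use the same control library, so a deviation of that library enters both.

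Set directly against each other, YA was lower than OA for 21 members, beside 21.5% of all genes, and higher for 3, beside 23.0%. The 21 are 35% of the members. The median of the members was -0.16, beside -0.01 for all genes. At 2-fold, 0 members were higher in YA and 2 were lower, HSPA6 and HSPE1, where 4.43% of all genes were 2-fold higher and 3.04% were 2-fold lower. HSPA6 had 37, 20 and 39 counts in control, YA and OA and was included only through its higher libraries. HSPE1 had 87, 65 and 126 counts, which are uncertain for the overlaps given below.

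**Figure D2:**
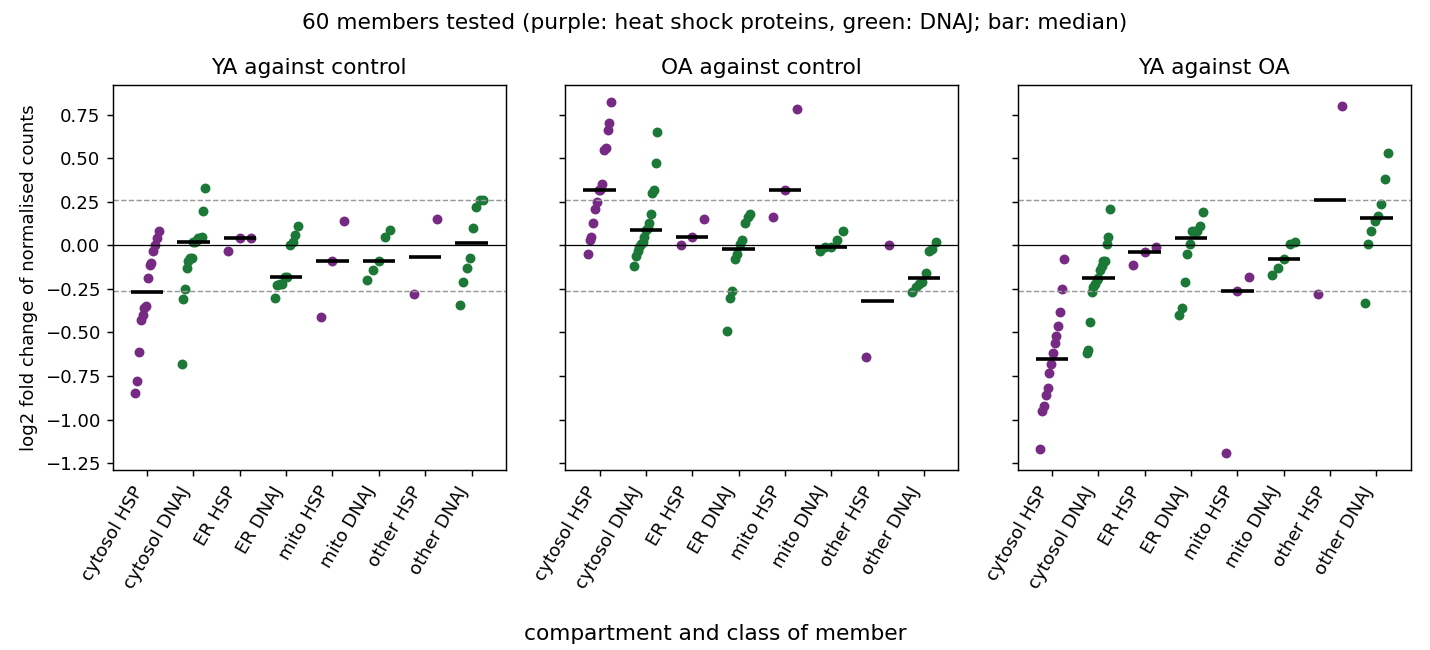
Log2 fold change of normalised counts for each of the 60 members in the 3 comparisons, split by compartment and by class (purple heat shock proteins, green DNAJ, black bar median, dashed lines 1.2-fold). The heat shock proteins of the cytosol stand lower in YA and higher in OA, with a median of -0.65 for YA against OA, while members of the endoplasmic reticulum centre near 0.

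The differences were unevenly spread over the compartments. Of the 14 included heat shock proteins of the cytosol and nucleus, 7 (50%, beside 16.4% of all genes) were lower and 0 higher in YA against control, with a median of -0.27. In OA against control, 8 were higher (57.1%, beside 21.1%) and 0 lower, with a median of 0.32. For YA against OA, 12 of the 14 were lower (85.7%, beside 21.5%), the median was -0.65 and each of the 14 values was below 0. HSPA6, lower in YA in both comparisons, was included only through its higher control and OA libraries. HSPA1A and HSPA1B, also lower in both, share much of their transcript sequence and may not count as separate genes. The DNAJ proteins of the same compartment, 15 included, were mostly within 1.2-fold, with 1 higher and 2 lower in YA (median 0.02) and 4 higher and 0 lower in OA (median 0.09). For YA against OA, 4 of them were lower and 0 higher, with a median of -0.19 and 12 values below 0. Their shares, 13.3% lower in YA, 26.7% higher in OA and 26.7% lower for YA against OA, are near those of all genes (16.4%, 21.1% and 21.5%).

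The 13 members of the endoplasmic reticulum had 1 lower and 0 higher in YA (median -0.03), 2 lower and 0 higher in OA (median 0.01), and a median of -0.01 for YA against OA. Its shares lower, 7.69% and 15.4%, are under those of all genes (16.4% and 21.5%). The 8 mitochondrial members had 1 lower in YA (median -0.09), 2 higher in OA (median 0.06) and 1 lower for YA against OA (median -0.15). These are 12.5%, 25% and 12.5% of the members, beside 16.4%, 21.1% and 21.5% of all genes. The 10 members of other or unassigned places had 2 lower in YA (median 0.02), 2 lower in OA (median -0.19), and 3 higher and 2 lower for YA against OA (median 0.15), which is 20%, 20%, 30% and 20%, beside 16.4%, 21.5%, 23.0% and 21.5% of all genes. By medians of YA against OA, the difference between the secretome libraries was thus largest in the cytosolic heat shock proteins and near 0 in the endoplasmic reticulum. Split by class as in the cytosol, the 3 mitochondrial heat shock proteins had a median of -0.26 and the 5 mitochondrial DNAJ proteins -0.08. In the endoplasmic reticulum these medians were -0.04 for 3 heat shock proteins and 0.04 for 10 DNAJ proteins.

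**Figure D3:**
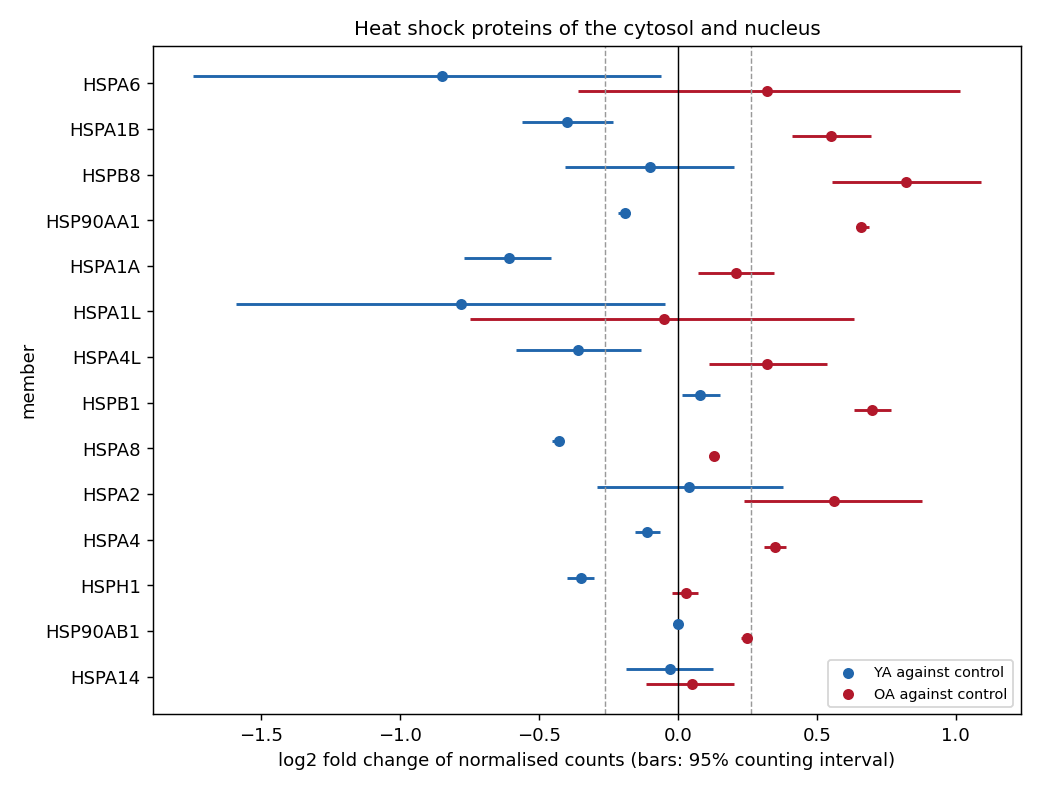
Log2 fold change against control of the 14 included heat shock proteins of the cytosol and nucleus, YA in blue and OA in red, with 95% counting intervals as bars and 1.2-fold as dashed lines. HSPA8 and HSPH1 lie low in YA only, HSP90AA1, HSPB1 and HSPB8 lie high in OA only, and the rarely counted HSPA6 and HSPA1L have wide bars.

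The cytosolic Hsp70 proteins carried the lower values in YA. HSPA8 (chr11:123057489-123063230, minus strand, GENCODE 29 on GRCh38) folds new proteins in every cell and also strips clathrin from vesicles. It had 53004, 39121 and 48555 counts in control, YA and OA. YA was the low library, at 1.35-fold below control (interval 1.33 to 1.37) and 1.47-fold below OA (1.45 to 1.49), while OA against control gave a log2 value of 0.13. Relative to BiP, the Hsp70 of the endoplasmic reticulum, HSPA8 stood per length at 2.33 (2.29 to 2.37), 1.68 (1.65 to 1.71) and 2.29 (2.25 to 2.33) in control, YA and OA.

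HSPA1A and HSPA1B lie side by side at chr6:31815464-31817946 and chr6:31827735-31830255, both on the plus strand, and encode nearly the same Hsp70, the form classically induced by heat. HSPA1A had 856, 558 and 831 counts in control, YA and OA, with log2 values of -0.61 for YA and 0.21 for OA against control. HSPA1B had 707, 535 and 872 counts, with -0.40 for YA and 0.55 for OA. Because 67.3% of the 100-base windows of HSPA1A transcripts and 72.7% of those of HSPA1B also occur in another gene's transcripts, chiefly each other's, the counting could have split or dropped their reads. Summed, the pair had 1563, 1093 and 1703 counts, which is 1.43-fold lower in YA and 1.3-fold higher in OA than in control (interval 1.21 to 1.39), so the sum was low in YA and high in OA.

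HSPA6, the Hsp70B' gene that is almost silent without stress, had 37, 20 and 39 counts in control, YA and OA. Its YA value was 1.8-fold below control (1.04 to 3.35) and 2.25-fold below OA (1.32 to 4.19), and OA against control had an interval of 0.78 to 2.02 that includes 1. With so few counts HSPA6 was not induced to any sizeable level in any library. It shares 45.5% of its 50-base windows and 27.6% of its 100-base windows with the pseudogene HSPA7, which was listed at 0. HSPA1L, an Hsp70 best known from testis, had 42, 24 and 34 counts. HSPA2, another germ cell Hsp70, had 151, 155 and 187 counts and was 1.47-fold higher in OA than in control (1.18 to 1.84). HSPA14, an Hsp70 at the ribosome, was within 1.2-fold in each comparison.

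The promoters of these genes, 250 bases before to 50 after the start in RefSeq on GRCh38.p14, were searched on both strands for the heat shock element in its strict form of 3 units, in which GAA and TTC alternate with 2 bases of any kind between them. Of the 65 members with a promoter entry, 4 held it (6.15%), beside 133 of 27305 promoters in all (0.487%). The 4 are DNAJA1, DNAJB6, HSPA6 and HSPA8, the last with it at 2 places. They are shown because all 4 were called lower in YA than in control, beside 16.4% of all genes tested. Each is written 5′ to 3′ on the strand of its gene, with the match in capitals.

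DNAJA1, chr9:33025266-33025295, plus strand: gcgccgggcgGAACTTTCCAGAAcgctcgg
DNAJB6, chr7:157336863-157336895, plus strand: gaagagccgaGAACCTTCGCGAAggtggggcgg
HSPA6, chr1:161524456-161524488, plus strand: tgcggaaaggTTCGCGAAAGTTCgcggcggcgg
HSPA8, distal, chr11:123062344-123062376, minus strand: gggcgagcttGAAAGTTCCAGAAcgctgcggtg
HSPA8, proximal, chr11:123062169-123062201, minus strand: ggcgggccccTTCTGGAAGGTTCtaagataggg

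The match lies 74 to 62 bases before the start in HSPA6, 131 to 119 before it in DNAJB6, 230 to 218 and 55 to 43 before it in HSPA8, and 4 to 16 bases after it in DNAJA1. HSPA6, 1 of the 4, was included only through its higher control and OA libraries. In YA against control the 4 members had a median log2 value of -0.56. The 51 included members whose promoter lacked the strict form had a median of -0.07. Of these 51, 8 were lower and 1 was higher, beside 16.4% and 17.4% of all genes. Without HSPA6 the other carriers had a median of -0.43, and these values are a description of so few genes. In OA against control the medians were 0.03 and 0.05, and for YA against OA -0.59 and -0.14. Of 28 genes outside the family with the element, 5 were higher and 4 lower in YA, with a median of -0.03. The same shares of all genes, 17.4% and 16.4%, stand beside these counts. The part of the element in these values was not tested. A match of letters is a description and says nothing about binding of HSF1 in these cells, and its absence says only that these letters are not in this window.

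The Hsp110 proteins, which recharge Hsp70, split between the secretomes. HSPH1 (Hsp105) had 7926, 6197 and 6781 counts in control, YA and OA. It was 1.28-fold lower in YA than in control (1.23 to 1.32), whereas OA and control differed by a log2 value of 0.03. HSPA4 (APG-2) had 8272, 7645 and 8850 counts and was 1.27-fold higher in OA (1.24 to 1.31), with -0.11 in YA. HSPA4L, the least abundant of them, had 373, 290 and 392 counts, with log2 values of -0.36 in YA and 0.32 in OA. All 3 were at least 1.2-fold lower in YA than in OA, beside 21.5% of all genes, and their median there was -0.46.

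Hsp90 differed mainly in its inducible form. HSP90AA1 (chr14:102080738-102139699, minus strand) had 36995, 32245 and 49233 counts in control, YA and OA, the largest number in OA in spite of that library's smaller total. It was 1.59-fold higher in OA than in control (1.56 to 1.61), 1.14-fold lower in YA (1.13 to 1.16), and 1.81-fold lower in YA than in OA (1.79 to 1.84). HSP90AB1, which is present at all times, had 44907, 44778 and 44818 counts, or log2 values of 0.00 in YA and 0.25 in OA, under the 1.2-fold mark. Per length, the ratio of the inducible to the constitutive form was 0.468 (0.461 to 0.474), 0.409 (0.403 to 0.415) and 0.624 (0.616 to 0.632) in control, YA and OA. The balance of the isoforms therefore moved toward HSP90AA1 in OA and away from it in YA. Hsp90 messages of all 3 genes together made up 0.4964%, 0.4737% and 0.6343% of counts in control, YA and OA.

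Small heat shock proteins hold unfolded clients without using ATP. Of the 3 included, 2 were higher in OA than in control, beside 21.1% of all genes. HSPB1 (Hsp27) had 3100, 3264 and 4216 counts in control, YA and OA. OA stood apart from the other libraries, at 1.62-fold above control (1.55 to 1.7), and YA had a log2 value of 0.08. HSPB8 (Hsp22), which works with BAG3 to send clumped proteins to autophagy, had 193, 179 and 286 counts and was 1.76-fold higher in OA than in control (1.47 to 2.13), the largest upward difference among the 60 included members in that comparison. HSPB11, a subunit of intraflagellar transport in spite of its name, had 561, 460 and 471 counts and was 1.22-fold lower in YA (1.07 to 1.38), with 0.00 in OA.

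Among the cytosolic DNAJ proteins, the partners of Hsp70 did not move together. DNAJA1, the main class A partner, had 5747, 3571 and 4628 counts in control, YA and OA. In YA it was 1.6-fold below control (1.54 to 1.67) and 1.54-fold below OA (1.47 to 1.61), and OA against control gave -0.06. DNAJB1, the classical Hsp40 and itself a target of HSF1, had 3472, 3531 and 4024 counts, with 0.03 in YA and 1.38-fold higher in OA than in control (1.32 to 1.45). Per length, DNAJA1 stood at 2.23 (2.13 to 2.32), 1.36 (1.3 to 1.43) and 1.55 (1.48 to 1.61) times DNAJB1 in control, YA and OA, so both secretome libraries had a lower ratio than control.

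DNAJB4, a relative of DNAJB1, had 261, 270 and 345 counts, with a log2 value of 0.05 in YA and 0.65 in OA. DNAJB6, which keeps polyglutamine proteins from aggregating, had 4458, 3594 and 3453 counts, with -0.31 in YA and -0.12 in OA, so that YA was called lower and OA was not. DNAJB5 had 105, 108 and 110 counts and DNAJC17, a nuclear splicing protein, 225, 258 and 232, with log2 values of 0.32 and 0.30 in OA that few reads support. DNAJC12, which serves the hydroxylases of aromatic amino acids, had 73, 92 and 67 counts and was the 1 member called higher in YA, with an interval of 0.92 to 1.74 that includes 1. DNAJA2, DNAJB2, DNAJC2, DNAJC7, DNAJC8, DNAJC9, DNAJC21 and DNAJC24, which include class C proteins of the ribosome, spliceosome and histone supply, were within 1.2-fold in each comparison.

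**Figure D4:**
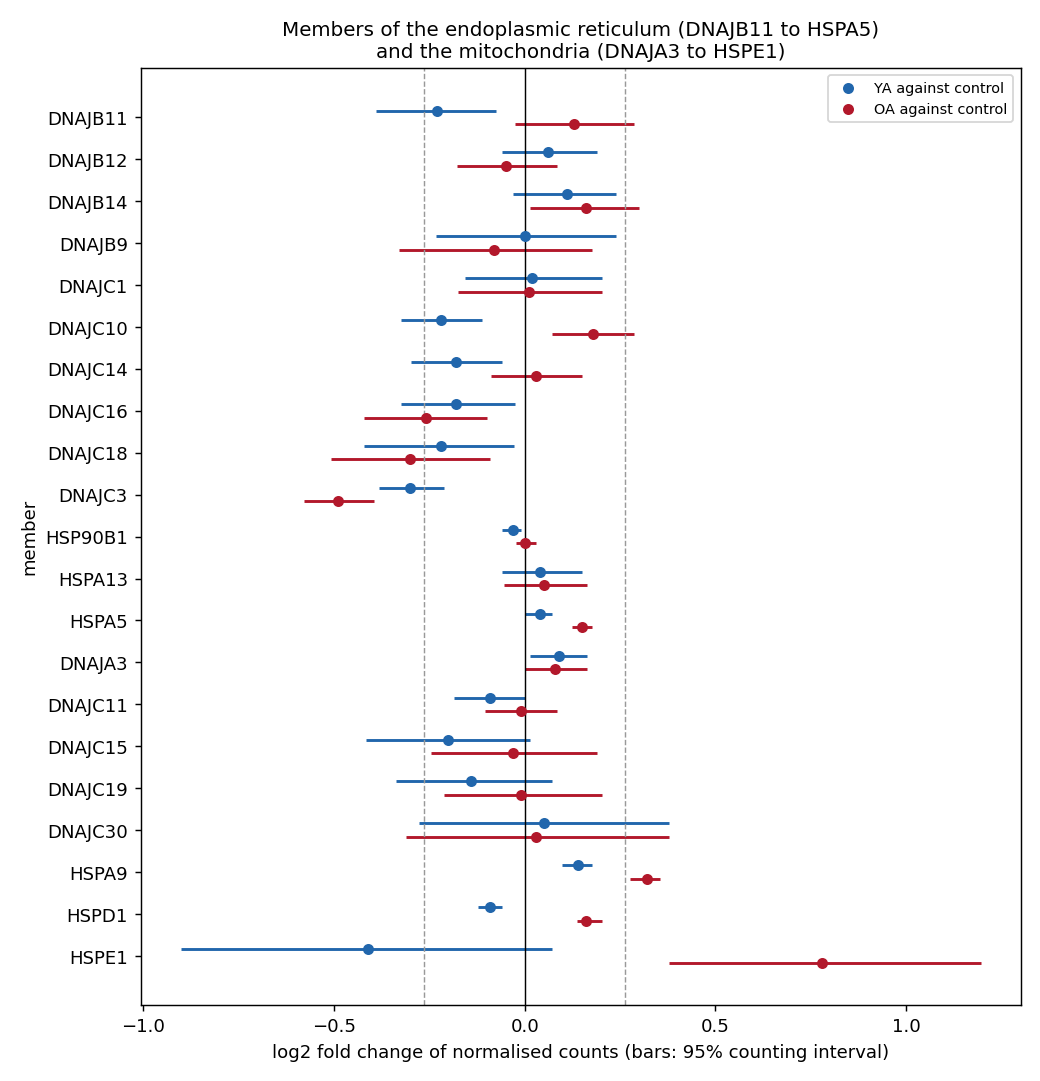
Log2 fold change against control of the 13 members of the endoplasmic reticulum and the 8 of the mitochondria, YA in blue and OA in red, with 95% counting intervals as bars and 1.2-fold as dashed lines. HSP90B1 and HSPA5 sit near 0, DNAJC3 lies low in both libraries, and HSPA9 and HSPE1 lie high in OA.

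In the endoplasmic reticulum the major chaperones were almost level. HSP90B1, which folds integrins and Toll-like receptors, had 24565, 23905 and 20687 counts in control, YA and OA, or log2 values of -0.03 and 0.00. HSPA5 had 18368, 18774 and 17084 counts, or 0.04 and 0.15. HSPA13, a small Hsp70 of the same compartment, had 0.04 and 0.05. Neither HSPA5 nor HSP90B1 passed 1.2-fold in any comparison, although their counts would resolve a difference of that size from counting error.

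Only these members' promoters held the ER stress element, CCAAT and CCACG with 9 bases of any kind between them, searched on both strands. They are 3.08% of the 65 member promoters, beside 22 of all 27305 promoters (0.0806%). The matches are shown, in capitals, because they belong to the major chaperones of the compartment, whose levels stayed within 1.2-fold. The second window of HSP90B1 holds the element on the other strand, and the start of each match lies 194, 89 and 66 bases before the gene start in the order printed.

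HSP90B1, distal, chr12:103930206-103930244, plus strand: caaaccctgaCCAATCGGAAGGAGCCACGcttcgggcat
HSP90B1, proximal, chr12:103930311-103930349, plus strand: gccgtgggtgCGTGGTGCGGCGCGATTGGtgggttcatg
HSPA5, chr9:125241381-125241419, minus strand: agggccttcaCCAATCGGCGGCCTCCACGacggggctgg

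DNAJC3 (p58IPK, chr13:95677139-95794989, plus strand), which assists BiP and restrains the kinase PERK, was the member of this compartment called lower in both secretome libraries. It had 2579, 2093 and 1545 counts in control, YA and OA, with control the highest and OA the lowest library. It was 1.23-fold lower in YA (1.16 to 1.3) and 1.4-fold lower in OA than in control (1.32 to 1.49), and the log2 value of YA against OA was 0.19. DNAJB9 (ERdj4), a sensitive target of the unfolded protein response, had 295, 295 and 235 counts, or 0.00 in YA and -0.08 in OA. DNAJC18, a J-protein of the ER membrane, had 466, 398 and 318 counts and was 1.23-fold lower in OA than in control (1.06 to 1.42).

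Between the secretomes, DNAJB11 (ERdj3), with 727, 617 and 667 counts, was 1.28-fold lower in YA than in OA (1.15 to 1.43). DNAJC10 (ERdj5), a disulfide reductase, had 1572, 1348 and 1493 counts and was 1.32-fold lower in YA than in OA (1.22 to 1.42). DNAJB12 and DNAJB14 of the ER membrane, DNAJC1, DNAJC14 and DNAJC16 were within 1.2-fold in each comparison. DNAJC16 had 776, 685 and 544 counts, with -0.26 in OA, just inside the mark. DNAJC14 counts are uncertain, since 21.9% of its exon bases overlap ORMDL2 on the opposite strand and 20% of its 100-base windows occur in other genes' transcripts.

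Of the mitochondrial members, HSPA9 and HSPE1 were called higher in OA. HSPA9 (mortalin), the Hsp70 of the import motor, had 10436, 11458 and 10934 counts in control, YA and OA. It was 1.25-fold higher in OA than in control (1.21 to 1.28), with a log2 value of 0.14 in YA. HSPD1 (Hsp60) had 15970, 14944 and 15016 counts, or -0.09 in YA and 0.16 in OA, both within 1.2-fold. The ratio of cytosolic HSPA8 to mitochondrial HSPA9 per length was 8.65 (8.47 to 8.83), 5.81 (5.69 to 5.93) and 7.56 (7.4 to 7.72) in control, YA and OA, lowest in YA.

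HSPE1 (Hsp10), the lid of the Hsp60 cage, lies head to head with HSPD1 at chr2:197499994-197503457 on the plus strand. It had only 87, 65 and 126 counts, with log2 values of -0.41 in YA and 0.78 in OA, and YA was 2.28-fold below OA (1.69 to 3.16). HSPE1 counts are uncertain, since 11.7% of its 50-base windows and 6.71% of its 100-base windows occur in other transcripts. Of its exon bases, 14.2% overlap HSPD1 on the opposite strand, and the 26 HSPE1 pseudogenes in the table held 55, 50 and 54 counts. The 5 mitochondrial J-proteins, among them DNAJA3 (Tid1) with 2678, 2839 and 2381 counts and the import protein DNAJC19, were within 1.2-fold in each comparison.

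Members of other places gave the few values that were higher in YA than in OA. HSPA12A, a distant Hsp70 relative, had 155, 172 and 83 counts in control, YA and OA. OA was the low library, 1.56-fold below control (1.19 to 2.07) and with a log2 value of 0.80 for YA against OA. DNAJC4 had 335, 401 and 233 counts and was 1.45-fold higher in YA than in OA (1.23 to 1.71), but 10.6% of its exon bases overlap NUDT22 on the same strand. DNAJC25, a membrane J-protein, had 183, 212 and 137 counts, or 0.38 for YA against OA.

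DNAJC6 (auxilin), which recruits HSPA8 to strip clathrin from vesicles, had 1165, 915 and 967 counts. It was 1.27-fold lower in YA than in control (1.16 to 1.39) and had -0.02 in OA, so it was low in YA like HSPA8 itself. DNAJC5, the cysteine string protein of secretory vesicles, had 2573, 2343 and 1863 counts, or -0.13 in YA and -0.21 in OA. DNAJC13, the endosomal RME-8, had 2798, 3000 and 2299 counts and DNAJC22 921, 873 and 655, all within 1.2-fold. DNAJC27 and DNAJC28, with 57 to 80 and 20 to 28 counts, were within 1.2-fold too.

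HSF1 and HSF2, factors of the heat shock response, were within 1.2-fold in each comparison. HSF1, its master factor, had 1699, 1785 and 1344 counts in control, YA and OA, or log2 values of 0.08 and -0.09. HSF2 had 476, 492 and 458 counts, or 0.05 and 0.20. HSF4, best known from the lens, had 42, 77 and 33 counts and was 1.82-fold higher in YA than in control (1.25 to 2.75). HSBP1, which binds HSF1 and holds it back, had 3148, 2612 and 2622 counts and was called lower in YA at -0.26, a call that total-count scaling does not make. The messages of these factors do not report their activity, which is set by protein modification and location.

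**Figure D5:**
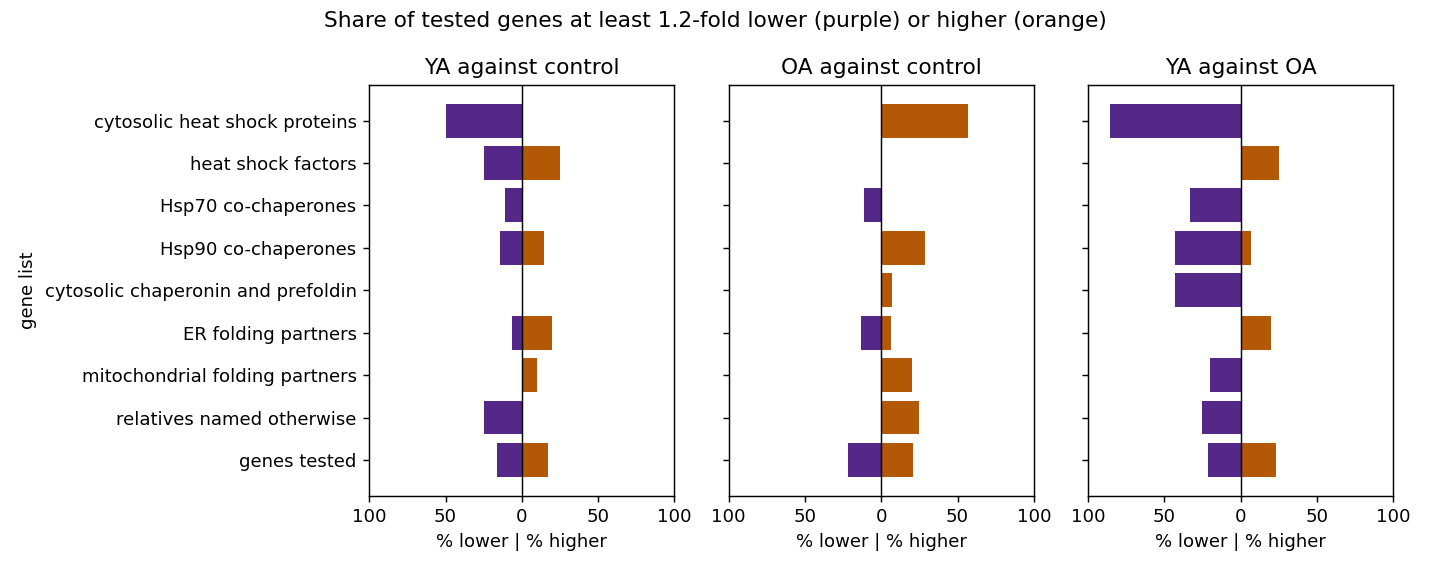
Share of included genes at least 1.2-fold lower (purple, to the left) or higher (orange, to the right) in the 14 cytosolic heat shock proteins, the 7 lists of the chaperone network and all genes tested, in each comparison. The cytosolic heat shock proteins show 50% lower in YA, 57.1% higher in OA and 85.7% lower for YA against OA, and the network lists show smaller shares.

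Partner genes of the network were taken in lists written from their known roles, and their medians lay nearer to 0 than those of the cytosolic heat shock proteins. Of 14 Hsp90 co-chaperones, 2 were higher and 2 lower in YA (median -0.09), 4 were higher and 0 lower in OA (median 0.21), and 6 were lower and 1 higher for YA against OA. The shares in YA, 14.3% each way, are near those of all genes (17.4% and 16.4%), and the 28.6% higher in OA stand beside 21.1% of all genes. For YA against OA, the 42.9% lower and 7.14% higher stand beside 21.5% and 23.0% of all genes. STIP1 (HOP), which bridges Hsp70 and Hsp90, had 8786, 8271 and 10343 counts and was 1.4-fold higher in OA than in control (1.36 to 1.44). AHSA1, which speeds the ATPase of Hsp90, had 3954, 3172 and 3715 counts, or -0.31 in YA and 0.16 in OA. SUGT1 had 1841, 1635 and 1292 counts, or -0.17 and -0.26.

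FKBP5, an Hsp90 co-chaperone of steroid receptors and a classical glucocorticoid target, was the 1 list gene called higher in YA than in OA. It had 649, 2159 and 626 counts in control, YA and OA and was 3.33-fold higher in YA than in control (3.05 to 3.65), with 0.20 in OA. Its relative FKBP4 had 3016, 2742 and 3392 counts and was 1.34-fold higher in OA than in control (1.28 to 1.41), with -0.13 in YA. The pair of immunophilins thus differed in opposite order between the secretome libraries, FKBP5 being higher in YA than in OA and FKBP4 lower. The other gene of the list called higher in YA against control was TTC4, with 32, 41 and 39 counts. Its interval, 0.79 to 2.11, includes 1. FKBP4 and TTC4 were named after their values had been seen.

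The 9 Hsp70 co-chaperones showed a median of -0.10 in YA and of 0.05 in OA. BAG1, a nucleotide exchange factor, had 1221, 811 and 744 counts and was lower in both libraries, at -0.59 in YA and -0.46 in OA. BAG3, the partner of HSPB8, had 4334, 4064 and 4333 counts, or -0.09 and 0.25. BAG2, which inhibits the ubiquitin ligase STUB1, had 612, 511 and 594 counts, or -0.26 and 0.21, and BAG6 had 0.07 and 0.05.

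The cytosolic chaperonin and prefoldin, which fold actin and tubulin, formed an even list in YA. All 14 genes were below 0 in YA, from -0.25 to -0.03 with a median of -0.15, yet 0 passed 1.2-fold. In OA the median was 0.14 and PFDN2, with 2832, 2558 and 3095 counts, was the 1 gene called, at 1.3-fold higher (1.24 to 1.37). For YA against OA all 14 were below 0, 6 of them (42.9%, beside 21.5% of all genes) by at least 1.2-fold. Of the 14413 genes tested, 7421 were below 0 in that comparison and 7654 in YA against control. Among the others, CCT4 had log2 values of -0.03 in YA and 0.16 in OA, CCT6A -0.25 and 0.15, and PFDN5 -0.19 and -0.12.

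The 15 folding partners of the endoplasmic reticulum had a median of -0.02 in YA and of 0.02 in OA, with 3 higher and 1 lower in YA and 1 higher and 2 lower in OA. The 20% higher in YA are near the 17.4% of all genes. HERPUD1, which helps to degrade misfolded proteins of that compartment, had 1414, 2090 and 1170 counts and was 1.48-fold higher in YA than in control (1.39 to 1.59). XBP1 and DDIT3 (CHOP), transcription factors of the unfolded protein response, had log2 values of 0.49 and 0.77 in YA and of 0.21 and 0.48 in OA. MANF, a secreted stress protein, had 2986, 2321 and 2084 counts, or -0.36 and -0.27, and CRELD2 had 629, 537 and 387, or -0.22 and -0.45. The factors were thus higher in YA while HSPA5, HSP90B1, DNAJB9 and the disulfide isomerases PDIA3 and PDIA4 stayed within 1.2-fold.

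Of 10 mitochondrial partners, LONP1, the matrix protease, stood out with 4617, 6373 and 4823 counts. It was 1.38-fold higher in YA than in control (1.33 to 1.44) and 1.24-fold higher in OA (1.19 to 1.3). CLPB, a disaggregase, had 1000, 1034 and 1081 counts and was 1.29-fold higher in OA than in control (1.18 to 1.4), and the proteases YME1L1 and AFG3L2 were between -0.20 and 0.10 in both. J-domain and crystallin relatives with other names had 4 of 7 genes included, of which GAK, the auxilin of all tissues, had 2338, 2697 and 2406 counts, or 0.21 in YA and 0.29 in OA. SEC63, which works at the translocon of the endoplasmic reticulum, had 2837, 2723 and 2157 counts, or -0.05 and -0.14, and CRYAB, the small heat shock protein alpha B crystallin, had 14, 3 and 1 counts.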

How the data were processed

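Poly(A) RNA of 3 A375 samples was sequenced on an Illumina NovaSeq after SureSelect library preparation. Whole-number counts for each gene, not normalised, were deposited by the authors under Ensembl identifiers, and the submitters' processing notes name STAR 2.5.1b, featureCounts, R 3.6.1 and hg38 without their roles. Strand, annotation release and treatment of reads with several matches were not given in the sources used here. Samples were grouped by their treatment label. Counts were divided by DESeq2 1.42.0 median-of-ratios size factors (R 4.3.3), with a pseudocount of 1, a minimum mean of 20 and a threshold of 1.2-fold. With 1 library per group no test was possible. Alternatives were edgeR 4.0.16 TMM and total-count scaling, no minimum or 100, a pseudocount of 5, 2-fold, and HSPA1A and HSPA1B summed. Exon lengths, positions and overlaps came from GENCODE 29, which matched 57433 of 58037 identifiers without version, and promoters from RefSeq GRCh38.p14, where DNAJC1, DNAJC22, DNAJC24, DNAJC5B, HSPA12B, HSPA14, HSPB11, HSPB2 and HSPB2-C11orf52 had no entry. Shares have 95% Wilson intervals, and no fold is printed for a gene under the minimum. The numbers of members called without the minimum include genes with as few as 1 count. Members, roles and lists were chosen with earlier results of these data known. Members named in the text were 17 fixed ones and, per comparison, 8 at each end of the ordering by interval bound (highest lower bounds, lowest upper bounds). In each list the gene at either end was named, except 1 that is not reported here, and HSF1 and HSF2 in any case. Other members and list genes that are named, among them FKBP4, XBP1, DDIT3 and the members outside this rule, were chosen after their values had been seen. Protein sequences were not analysed here. The scripts (Python 3.11.15, numpy 2.4.6, pandas 2.3.3, scipy 1.17.1, matplotlib 3.10.9) were tested on simulated counts.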

Additional observations from a re-analysis of the deposited data

How the results depend on the processing

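At 2-fold in place of 1.2-fold, no comparison had a member called higher (0) and members called lower numbered 0, 0 and 2 for YA against control, OA against control and YA against OA. Without the minimum of 20, members called numbered 4 higher in YA and 9 lower in OA against control, and 9 higher for YA against OA. Members higher in YA against control numbered 2 with total-count scaling and 0 with a minimum of 100. The other 40 counts and medians were the same within 1.5 times or 0.05, and none changed direction past the threshold. Summing HSPA1A and HSPA1B gave 0.38 in OA for 0.21 and 0.55, and the other 319 values of single members moved by less than their counting interval. Scaling by TMM or totals shifted the median of a family or list by at most 0.02, which turns the sign only of medians next to 0. No paired analysis was possible because each group had 1 library, and leaving out a library would remove its group. At the counts of DNAJB5 or below, about 100 per library, a 1.2-fold difference lies within counting error, and no depth stands in for replicates.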

Other observations

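A search that let the heat shock element differ at 1 of its fixed letters, chosen after the data had been seen, found it in 12 member promoters (18.5% of 65), beside 1736 of 27305 promoters (6.36%). Besides DNAJA1, DNAJB6, HSPA6 and HSPA8 it took in HSPA1A, HSPA1B, HSPA1L, HSPA9, HSPB1, HSPB6, DNAJB7 and DNAJC15. Of the 10 that were included, 7 were lower and 0 higher in YA against control (median -0.42), and 4 were higher and 0 lower in OA (median 0.17), beside 16.4% of all genes lower in YA and 21.1% higher in OA. HSPA6, 1 of the 7, was included only through its higher control and OA libraries, so the filter favoured its low value in YA. The 45 included members without it had 5 lower and 1 higher in YA (median -0.03), and 10 higher and 4 lower in OA (median 0.03). Of 393 genes outside the family with the relaxed element, 50 were lower and 66 higher in YA (median -0.01), and 62 were higher and 85 lower in OA (median -0.01). The windows of HSPA1A, HSPA1B and HSPB1 are printed 5′ to 3′ with this match in capitals, from RefSeq on GRCh38.p14, as inducible genes that only the relaxed form takes in.

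HSPA1A, chr6:31815427-31815459, plus strand: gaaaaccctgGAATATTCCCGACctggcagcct
HSPA1B, chr6:31827623-31827655, plus strand: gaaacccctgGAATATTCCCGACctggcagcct
HSPB1, chr7:76302481-76302513, plus strand: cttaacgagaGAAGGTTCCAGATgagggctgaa

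The promoters of HSPA1A and HSPA1B were identical at 277 of 301 aligned positions (92%), so the pair counts as nearly 1 promoter in these numbers. The composite element of ATF4 and CHOP, TGATGNAA on either strand, was found in 1 member promoter, that of HSPA4L (1.54%), beside 3.67% of all promoters.

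The table also holds 92 pseudogenes named after members, 51 of them with a count. Together they had 1462, 1006 and 1668 counts in control, YA and OA, the same order of libraries as HSP90AA1 and the HSPA1 pair. The 17 pseudogenes of HSPA8 had 531, 296 and 589 counts, the 15 of HSPD1 176, 102 and 173, and HSP90AA2, whose name marks it as a copy of HSP90AA1, 213, 152 and 276. How far these counts are reads of the parent genes was not tested.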
